A study of Mus musculus with 2 samples.

Results

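The miRNAs of the imprinted Dlk1-Dio3 locus form a large cluster on mouse chromosome 12, and they were examined here in exosomes, the RNA-carrying vesicles shed by cells. The source cells were BMSCs, which are mesenchymal stem cells taken from mouse bone marrow. The members were chosen by name. Every non-control probe was taken whose mouse miRNA carries any of 43 family numbers of the locus, with any letter and either arm. This gave 92 of the 1881 mouse miRNAs on the array, measured by 242 of its 4415 miRNA probes (1 to 4 probes per miRNA). By the order of genes in RefSeq, 91 of the 92 come from 46 miRNA genes of the locus. The remaining member, miR-496b, shares a family number but maps to chromosome 19, and it stayed among the members because the choice was by name.

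The study profiled exosomes from a culture kept in normoxia and from a culture kept for 72 h in a workstation at 0.2% oxygen. The BMSCs were purchased C57BL/6 mouse cells grown with serum. By the study's methods, the serum was depleted of exosomes for the culture before exosome isolation. Both conditions shared the RNA extraction and Cy3 labelling. There was 1 Agilent 1-colour array per condition, 2 arrays in all, so the spread between cultures was not measured and no test or p-value is given. An SD or SE below is over replicate spots inside an array and covers technical error only. Fewer exosomes and less of a miRNA per exosome cannot be told apart on these arrays, and neither can the condition and the place of an array on the shared slide.

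The locus is imprinted, so each of its transcripts is read from the copy of a single parent. The paternal copy gives the protein-coding genes Dlk1, Rtl1 and Dio3. The maternal copy gives the long noncoding RNAs Meg3, Rtl1 antisense, Rian and Mirg, from which the miRNAs are cut. These miRNAs are best known from brain, embryo, placenta and pluripotent stem cells. A hairpin can give a 5p and a 3p mature miRNA from its arms, and the mature strand finds its target mRNAs mainly through its seed, bases 2 to 8.

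The sequences that carry the results are printed 5′ to 3′ with the seed in capitals. They come from RefSeq (GRCm38.p6), where 88 of the 92 members were matched by name. The first pair were detected on both arrays. The next pair are their partner arms from the same hairpins. miR-300-3p was the undetected member nearest to a detection call, miR-381-3p is its close relative in sequence, miR-127-3p is a well-known product of the Rtl1 antisense transcript, and miR-3072-5p is from the locus but outside the list of 43 numbers.
miR-494-3p: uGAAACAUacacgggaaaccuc
miR-673-5p: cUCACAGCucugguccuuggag
miR-494-5p: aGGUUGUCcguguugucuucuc
miR-673-3p: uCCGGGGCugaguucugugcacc
miR-300-3p: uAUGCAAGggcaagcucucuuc
miR-381-3p: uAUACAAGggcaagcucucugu
miR-127-3p: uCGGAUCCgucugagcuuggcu
miR-3072-5p: aGGGACCCcgagggagggcagg
miR-494-3p lies at chr12:109715367-109715388, miR-673-5p at chr12:109572004-109572025 and miR-3072-5p at chr12:109747893-109747914, all on the plus strand. The seed of miR-494-3p was shared with no other mature mouse miRNA in the table, and that of miR-673-5p with 1, miR-6985-3p, which was undetected on both arrays.

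Most of the locus was dark in these exosomes. The scanner software marks each spot as well above background or not. Here a probe counted as detected if over 50% of its usable spots carried that mark, and detection of a miRNA needed at least 1 such probe. On the normoxia array 2 of the 92 members were detected (2.17%), against 12.0% of all miRNAs. On the hypoxia array 2 of 92 were detected, against 10.6% of all miRNAs. They were the same 2 members, miR-494-3p and miR-673-5p, so 2.17% of members were detected on both arrays, against 9.57% of all miRNAs (180 of 1881). Counted over single spots, 1.5% of the 2669 usable member spots in normoxia and 1.88% of the 2663 in hypoxia were well above background, beside 9.81% and 8.50% for the miRNA spots of the whole array. No member spot was saturated, and 3.30% and 3.51% of member spots had been left out as outliers.

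The 2 detected miRNAs sit far from each other in the cluster. Along the 60 miRNA genes from the Dlk1 side to Mir3072, Mir673 is number 3, on the Meg3 side, and Mir494 is number 31, on the Mirg side. Of the 8 members on the Meg3 side 1 was detected, of the 10 members antisense to Rtl1 none, of the 4 members at Rian none, and of the 69 members on the Mirg side 1. The genes on either side of Mir494, Mir329 and Mir679, gave no detected miRNA, nor did Mir770 and Mir493 on either side of Mir673. By arm, 1 of 45 5p members and 1 of 46 3p members were detected.

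**Figure D1:**
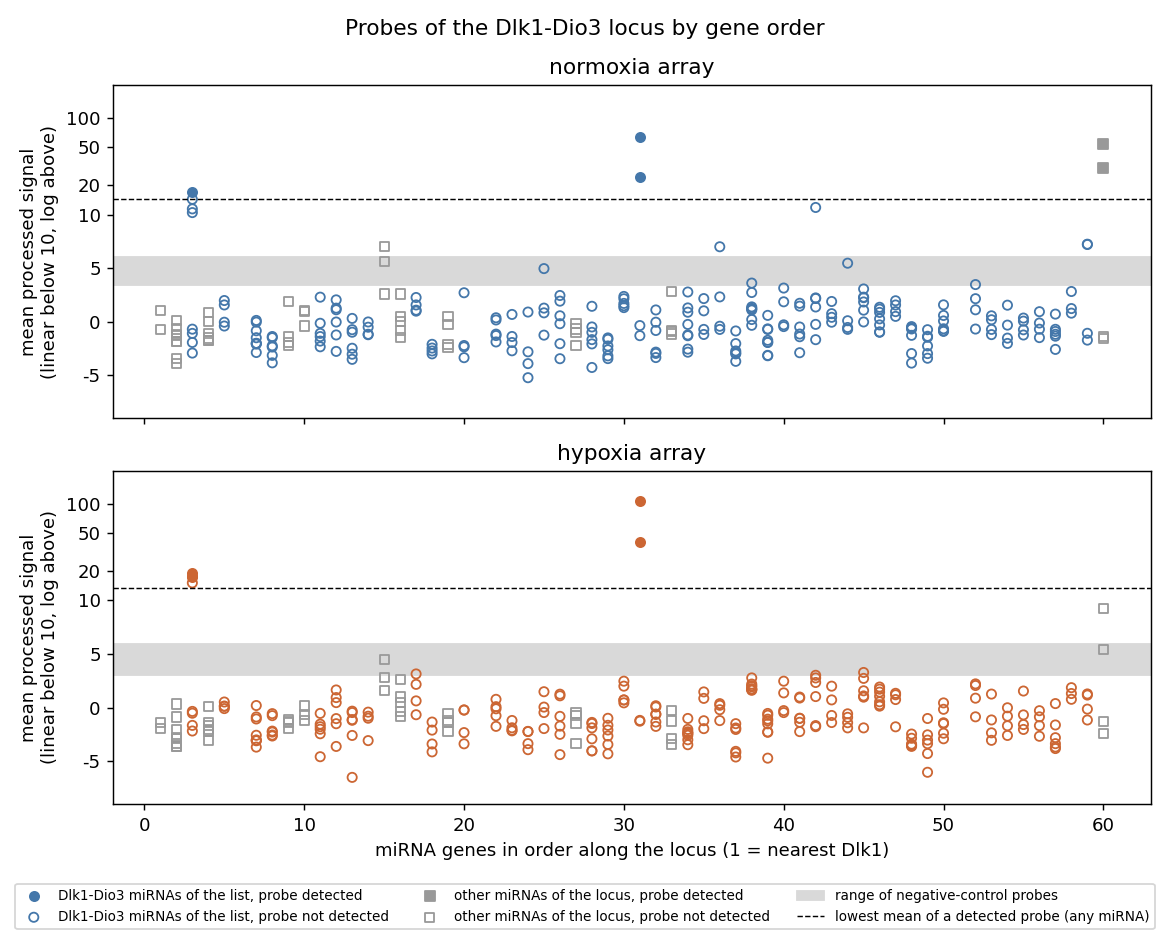
Mean processed signal of each probe (linear scale below 10, log scale above) against the order of its miRNA gene along the Dlk1-Dio3 locus, for the normoxia array (top) and the hypoxia array (bottom). Filled symbols are detected probes, circles are the members (miR-496b, outside the locus, is not drawn), squares are other miRNAs of the locus, the grey band is the range of the negative-control probes and the dashed line is the lowest mean of a detected probe. On both arrays the detected member probes belong to genes 3 (Mir673) and 31 (Mir494), and gene 60 (Mir3072) is detected in normoxia only.

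miR-494-3p, a 3p arm from the Mirg side of the locus, was higher in hypoxia. On its first probe the processed signal, a background-subtracted linear intensity, was 63.2 ± 2.89 in normoxia (SD over 14 spots) and 107 ± 11.0 in hypoxia (14 spots). On its second probe it was 24.4 ± 3.81 in normoxia (15 spots) and 39.6 ± 6.78 in hypoxia (14 spots). Every usable spot of both probes was well above background, 29 of 29 in normoxia and 28 of 28 in hypoxia. The spots of the first probe did not overlap between the arrays, from 58.4 to 68.3 in normoxia and from 86.2 to 124 in hypoxia. Those of the second probe overlapped at the edge, from 18.5 to 31.1 and from 26.8 to 48.0.

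After quantile normalization of the 2 arrays the first probe stood at 54.6 in normoxia and 130 in hypoxia, and the second at 20.8 and 47.3. The log2 difference of miR-494-3p, hypoxia minus normoxia, was 1.22 ± 0.049 (SE over spots), 2.33-fold higher in hypoxia, with 1.26 on the first probe and 1.19 on the second. Thus 1 of the 2 detected members was at least 2-fold higher, beside a background of 18.3% of the 180 miRNAs detected on both arrays (33). Neither of these 2 members was at least 2-fold lower, where 10.0% of the same 180 miRNAs were (18). Members not detected on both arrays could not enter either count. Of the 180 miRNAs, 26 had a larger log2 difference than miR-494-3p and 153 a smaller one. Its value lay 1.05 above the median of all 180, which was 0.17.

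The size of this difference depended on the processing, while its direction was the same in all 12 alternative settings. Without normalization it was 0.73 on the log2 scale, and scaled to the hybridization spike-ins 0.85. With the normexp background correction it was 0.56, so in these 3 settings miR-494-3p was under 2-fold. Scaled to the 75th percentile of all miRNA probes it was 1.66. Since any scaling by a single factor per array moves all miRNAs together, the distance of miR-494-3p above the median of all miRNAs was 1.00 in each of them, and with normexp it was 0.47.

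**Figure D2:**
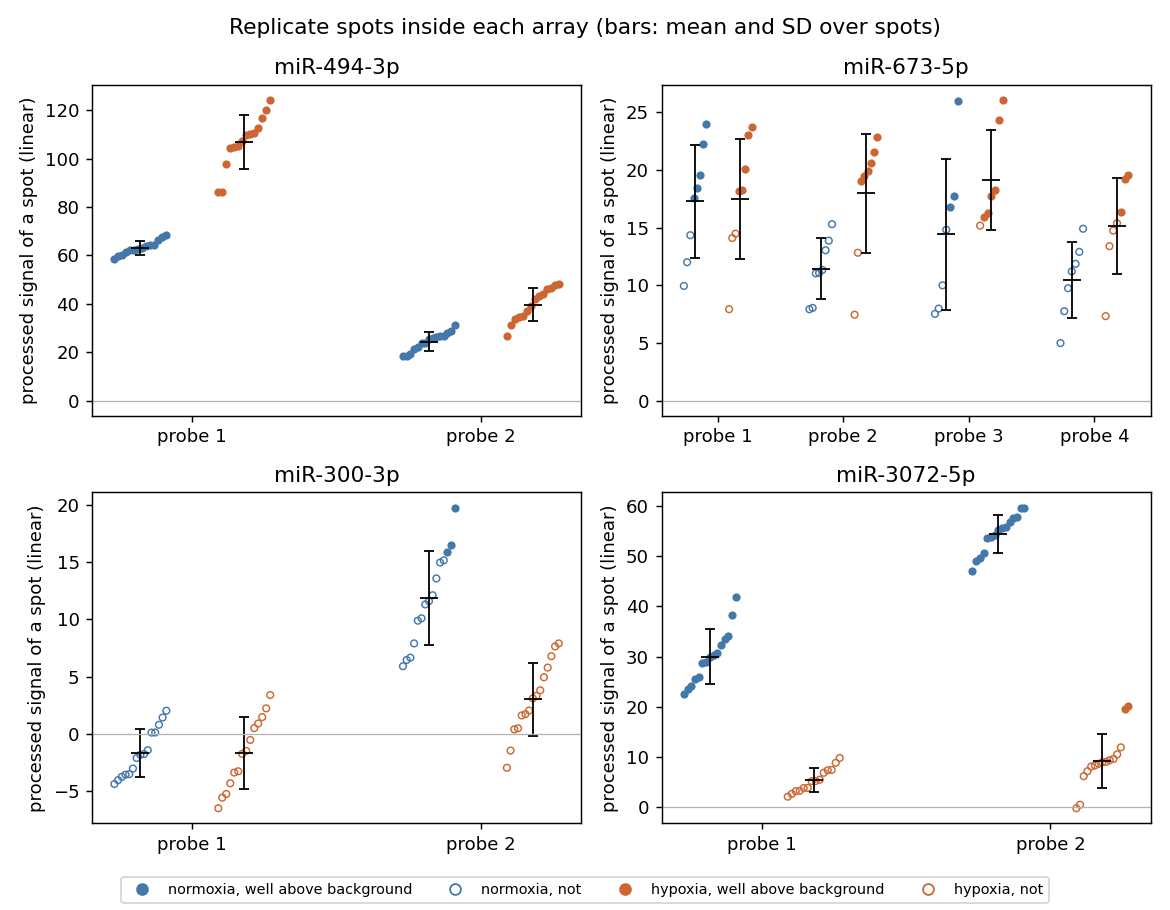
Processed signal (linear) of every usable spot of miR-494-3p, miR-673-5p, miR-300-3p and miR-3072-5p, by probe and array, with spots sorted by value. Filled points are spots well above background and black bars are the mean and SD over spots. The hypoxia spots of miR-494-3p lie above the normoxia spots, with an overlap at the edge on the second probe, those of miR-3072-5p lie below, and those of miR-673-5p overlap.

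miR-673-5p was near the limit of detection. Its first probe, the single probe of the 4 that was detected on both arrays, had a processed signal of 17.3 ± 4.88 in normoxia and 17.5 ± 5.20 in hypoxia (SD over 8 spots each), with 5 of 8 spots well above background on each. The difference was smaller than the SD of the spots. The second probe gave 11.4 ± 2.60 with 0 of 8 spots above background in normoxia and 18.0 ± 5.18 with 6 of 8 in hypoxia. The third gave 14.4 ± 6.57 with 3 of 7 and 19.1 ± 4.32 with 6 of 7, and the fourth 10.5 ± 3.31 with 0 of 7 and 15.1 ± 4.12 with 3 of 7. Over the 4 probes, 8 of 30 spots were above background in normoxia and 20 of 30 in hypoxia. The hypoxia mean was the higher one on every probe, and the spots overlapped between the arrays on each of them.

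The log2 difference of miR-673-5p after quantile normalization was 0.58 ± 0.21 (SE over spots of the first probe), 1.49-fold and under the 2-fold threshold. Of the 180 miRNAs detected on both arrays, 59 had a larger difference and 120 a smaller one, and it lay 0.41 above their median. Without normalization the difference was 0.02. The software's own summed signal per miRNA went from 5.71 to 7.39 before normalization, under 2-fold. Quantile-normalized, this measure gave a log2 difference of 1.05, past 2-fold. The same sum of miR-494-3p went from 18.6 to 31.1 before normalization and gave 1.40 after it. The median log2 difference of the 2 detected members was 0.90, beside 0.17 for all 180 miRNAs.

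**Figure D3:**
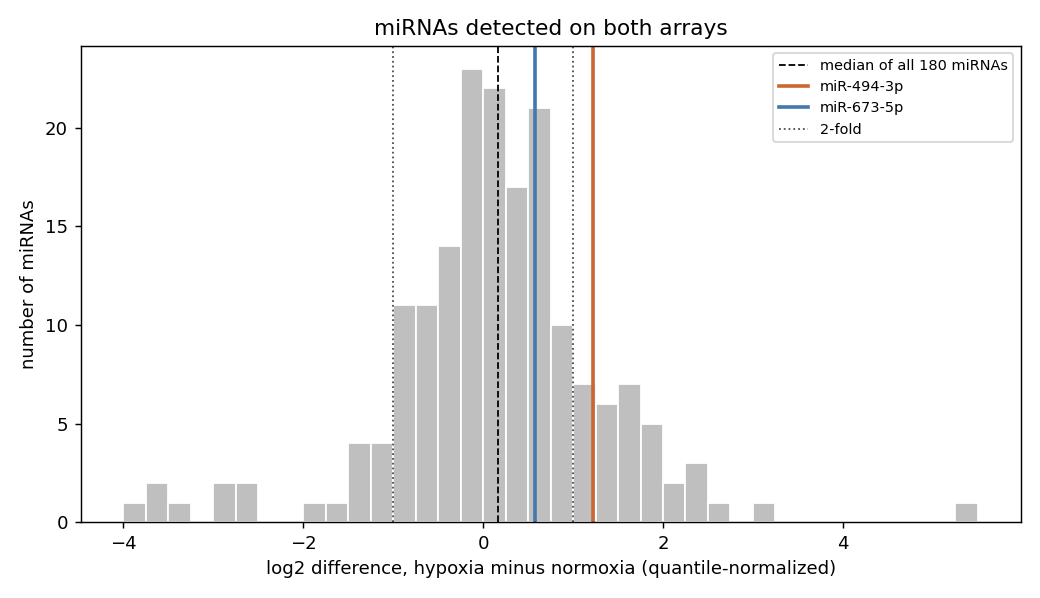
Number of miRNAs (vertical axis) by log2 difference, hypoxia minus normoxia after quantile normalization (horizontal axis), for the 180 miRNAs detected on both arrays. The dashed line is their median of 0.17 and dotted lines mark 2-fold. miR-494-3p at 1.22 lies beyond 2-fold and miR-673-5p at 0.58 does not.

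**Figure D4:**
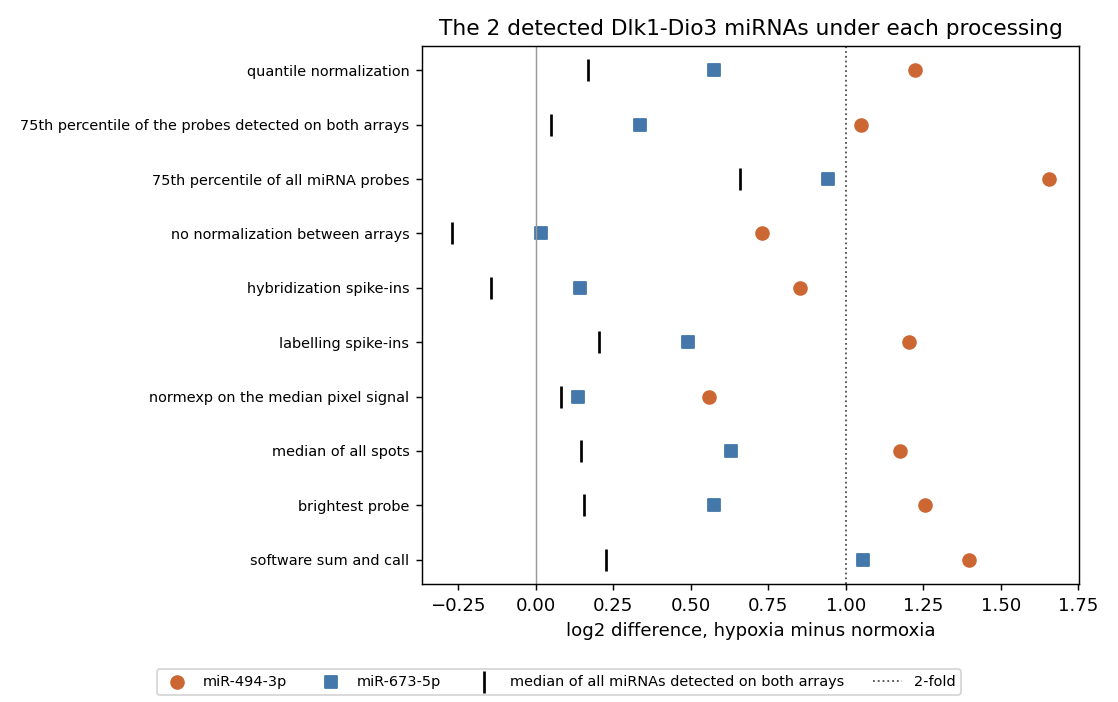
Log2 difference, hypoxia minus normoxia, of miR-494-3p (circles), miR-673-5p (squares) and the median of all miRNAs detected on both arrays (ticks) under each processing of the 2 arrays. miR-494-3p ranges from 0.56 to 1.66 and lies above the median of all miRNAs in every setting drawn.

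A single strand of each of these hairpins was seen. The partner arm miR-494-5p had 0 of 30 spots above background on each array, with a highest probe mean of -0.35 in normoxia and -1.20 in hypoxia. The partner miR-673-3p likewise had 0 of 28 and 0 of 30, with -0.68 and -0.36. A processed signal below 0 means that the spots were dimmer than their estimated background. The seed of miR-494-5p is also that of miR-410-5p. This pair is among 4 pairs with a shared seed, counted over the 88 members with a matched sequence. All 4 are named for that reason, the others being miR-379-3p with miR-411-3p, miR-299a-3p with miR-299b-3p, and miR-376b-5p with miR-376c-5p. No member of these pairs was detected.

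No close relative in sequence was found for the detected members. The mature miRNA nearest to miR-494-3p by edit distance was miR-30f, 7 changes away over 22 bases. The nearest to miR-673-5p were also 7 changes away. None of these neighbours was detected on either array. The content of G and C was 45.5% for miR-494-3p and 59.1% for miR-673-5p, both inside the range of the 86 undetected members with a sequence (23.8% to 76.2%, median 47.8%).

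The other 90 members were not well above background on either array. Of them, 87 had no spot above background on both arrays. Over their 236 probes the mean processed signal had a median of -0.65 in normoxia (range -5.21 to 11.8) and -1.08 in hypoxia (range -6.51 to 3.27). It lay below 0 for 61.4% of these probes in normoxia and 69.1% in hypoxia. The lowest mean of any detected probe was 14.5 in normoxia and 13.5 in hypoxia, and the 7 negative-control probes lay between 3.39 and 6.06 and between 3.08 and 5.94.

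The well-studied products of the locus were among these dark members. miR-127-3p, which together with miR-136 cleaves the Rtl1 mRNA transcribed from the opposite strand, had probe means of -0.97 and 0.32 in normoxia and -0.34 and -0.47 in hypoxia. miR-136-5p had 0.99 and 2.27 in normoxia and 3.13 and 2.16 in hypoxia. miR-134-5p, a regulator of dendritic spine size in neurons, lay between -3.85 and -0.45 over 4 probes in normoxia and between -3.62 and -3.41 in hypoxia. No spot of these miRNAs was well above background, so none of these values was told apart from background and no fold is given. They were named for their known roles and not for their values.

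Only 3 of the 90 undetected members had any spot well above background. miR-300-3p had 3 of 15 spots of a probe above background in normoxia and 0 in hypoxia. miR-376c-3p had 1 of 7 spots of a probe in hypoxia, and miR-665-5p 1 of 15, also in hypoxia. The probe of miR-300-3p gave 11.8 ± 4.12 in normoxia and 3.0 ± 3.22 in hypoxia (SD over 15 spots each), from 5.90 to 19.8 and from -2.96 to 7.89. Its normoxia spots were mostly higher, with an overlap at the edge. The other probe of miR-300-3p was at background on both arrays, with -1.66 and -1.68. The software itself called miR-300-3p detected in normoxia, where the rule above did not. miR-381-3p, which differs from miR-300-3p by 3 changes over 22 bases and comes from the neighbouring gene, had no spot above background on either array.

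Some dim probes nevertheless differed between the arrays by over 3 SE over their spots. These differences are of the processed signal on the linear scale, not normalized between the arrays. Of the 236 probes of the 90 undetected members, 10 (4.24%) were lower in hypoxia by over 3 SE of the difference. The background was 4.66% of the 3881 probes of all miRNAs detected on neither array. No member probe was higher by over 3 SE, where 0.309% of all these probes were. The share of member probes was thus near that of the array. The median difference of the undetected member probes was -0.68 and that of all undetected probes -0.71. These values were looked at after the dim signals of the members had been seen.

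The 10 probes came from 9 members, of which 7 lie on the Mirg side and 6 are 3p arms, where 68 (75.6%) and 45 (50%) of all 90 undetected members are. For miR-410-3p both probes were lower in hypoxia, from 7.24 ± 3.70 to 1.16 ± 2.43 and from 7.21 ± 3.22 to 1.27 ± 3.19 (SD over 14 or 15 spots). For miR-495-3p, miR-487b-3p and miR-299b-3p 1 of 2 probes differed by over 3 SE and the other did not. A probe of miR-495-3p went from 7.0 ± 3.64 to 0.36 ± 4.33 and the other from 2.32 ± 2.86 to 0.21 ± 4.02. A probe of miR-487b-3p went from 5.47 ± 3.88 to -0.91 ± 2.22 and the other from 0.10 ± 2.48 to -1.90 ± 3.38 (15 spots for each of these probes). A probe of miR-299b-3p went from 4.96 ± 2.33 to 0.04 ± 3.44 (15 spots), and the other from -1.24 ± 2.04 to -1.96 ± 2.80 (14 spots). miR-666-5p and miR-323-3p on the Mirg side and miR-127-5p and miR-431-5p antisense to Rtl1 make up the rest together with miR-300-3p. No spot of the 10 probes was well above background, apart from the 3 spots of miR-300-3p, so a level in the exosomes cannot be given for any of them.

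At the far end of the cluster stood another miRNA of the locus with a clear signal. Of 19 miRNAs from 10 further families of the locus that are outside the list of 43 numbers, miR-3072-5p was detected, in normoxia only, and the other 18 on neither array. Its first probe gave 30.0 ± 5.45 in normoxia (15 spots) and 5.38 ± 2.39 in hypoxia (14 spots), and its second 54.4 ± 3.85 and 9.20 ± 5.45 (15 spots each). Every normoxia spot was above background, and in hypoxia 2 of the 15 spots of the second probe were. The spots of the arrays did not overlap on either probe.

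The normalized normoxia signal of each probe was set against the higher of its own signal and the lowest detected signal on the hypoxia array. By its second probe, which gave the larger bound, miR-3072-5p was at least 2.90-fold lower in hypoxia, a log2 bound of -1.53, and by its first at least 1.49-fold lower. Of the 45 miRNAs detected in normoxia only, 26.7% (12) were at least 2-fold lower by the same bound. For each of these miRNAs the probe with the largest bound was taken. The log2 bound of miR-3072-5p was under 2-fold with normexp (-0.49), where the added offset also shrinks it. It was under 2-fold as well when every spot of a probe had to be above background (-0.73). With the software's summed signal, quantile-normalized, it reached -2.87. Its partner arm miR-3072-3p and the members from the neighbouring genes Mir410 and Mir369 were undetected on both arrays. The 3 detected miRNAs of the locus thus differed in direction. miR-494-3p was higher in hypoxia and miR-3072-5p lower, while miR-673-5p was within 2-fold on its single probe detected on both arrays.

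Other clusters on the array give the scale of the low share. In the imprinted Sfmbt2 set (miR-297, miR-466, miR-467 and miR-669), 3 of 61 miRNAs were detected on each array (4.92%) and 1 on both. In the X-linked cluster of miR-322, miR-503, miR-351, miR-542 and miR-450, 2 of 13 were detected on both arrays (15.4%), with log2 differences of 1.07 and 2.54. In the clusters of miR-199 with miR-214 and of miR-143 with miR-145, which mark stromal cells, 5 of 10 were detected on both (50%), with a median log2 difference of 0.44. These shares are a description of 1 array per condition, and no test of a difference between clusters was run.

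**Figure D5:**
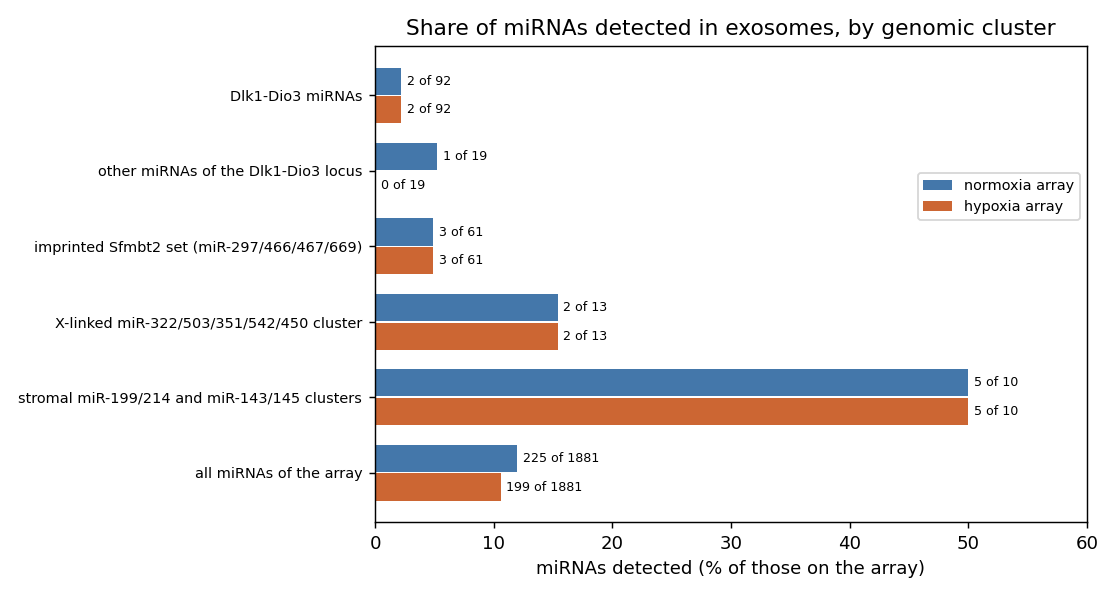
Share of the miRNAs on the array that were detected (horizontal axis, %), for the Dlk1-Dio3 members, other miRNAs of the locus, 3 comparison sets and all miRNAs, on the normoxia and the hypoxia array. Numbers beside the bars count the detected miRNAs. The members stand at 2 of 92 on both arrays.

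The labelled cell type was checked against markers. Of 7 miRNAs taken as stromal 6 were detected on both arrays, miR-145a-5p being the exception, and none of 5 epithelial miRNAs was. The 6 include miR-21a-5p and miR-22-3p, whose restriction to stromal cells was not checked. Of 4 neural miRNAs 1, miR-128-3p, was detected on both arrays. The list holds miR-9-5p, which was undetected, but not its partner arm miR-9-3p, which was detected on both arrays (log2 difference -0.20). The 4 names thus do not cover every miRNA of that kind. Of 7 blood miRNAs 3 were detected in normoxia and 1 in hypoxia, where the signal of the red cell miRNA miR-451a was 448 ± 37.5 and 26.5 ± 3.14 (SD over spots). The blood miRNAs miR-223-3p and miR-144-3p were detected in normoxia only, as miR-3072-5p was. Their part in the values of the locus was not tested.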

How the data were processed

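Exosomal RNA was profiled on 1 Agilent mouse miRNA array per condition. Image extraction by the authors used Feature Extraction 11.5.1.1 with background subtraction, per the file headers, and the design names mm9. The deposited values used are a linear intensity per spot (processed signal), not normalized between arrays, and flags of 0 or 1. The deposited value table equalled it (largest difference 0). The study's methods name Agilent's miRNA labelling kit and GeneSpring GX, and its discussion quantile normalization, whereas the labels describe reverse transcription of total RNA. The authors' summed intensity per miRNA, quantile-normalized between the arrays, served as an alternative.

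Spots with any of 4 outlier flags were dropped, the remaining spots of a probe averaged, and probe means quantile-normalized. A log2 difference is the mean over probes detected on both arrays. A miRNA detected on 1 array got a bound, from the probe with the largest. The 2-fold threshold follows the study. Members and lists were chosen with earlier results of these data known. Named miRNAs were every detected member, the undetected members with the highest share of spots above background, and seed groups holding a detected member, of which there was none; others were named for their role, position, partner arm or shared seed, or after their values were seen. Alternatives were other scalings, normexp (offset 50, limma 3.58.1, R 4.3.3), spot medians, the brightest probe, the value table, the software's call, and other filters. Python 3.11.15, pandas 2.3.3 and numpy 2.4.6 were used, and the calculation was tested on simulated data with known differences. Single differences were checked for size without normalization, and with quantile normalization for their sign and mean only. The number of arrays limits the precision.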

Additional observations from a re-analysis of the deposited data

How the results depend on the processing

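The members at least 2-fold higher in hypoxia numbered 1 as reported, 0 without normalization, 0 with scaling to the hybridization spike-ins and 0 with normexp. They numbered 2 with the software's summed signal after quantile normalization, and 1 in the other 8 settings. The count at least 2-fold lower was 0 in each of the 12 settings. Apart from the setting with no filter, only members detected on both arrays could enter these counts. When every spot of a probe had to be well above background, 1 member was detected in normoxia, 1 in hypoxia and 1 on both arrays, miR-494-3p each time. When 1 such spot was enough, 3 members were detected in normoxia and 4 in hypoxia. The median log2 difference of the detected members, 0.90 as reported, was 1.30 when the 75th percentile of all probes set the scale, 0.37 without normalization, 0.50 with the hybridization spike-ins, 0.35 with normexp, 1.23 with the software's signal and 1.22 when every spot had to be above background (miR-494-3p alone). With no filter the median covers all 92 members at no less than the lowest detected signal of each array, and its 0.43, the same as over all 1881 miRNAs, is the ratio of those floors and measures no member. The median of all miRNAs, 0.17 as reported, turned to -0.27 without normalization and to -0.14 with the hybridization spike-ins, and was 0.66 when the 75th percentile of all probes set the scale. The log2 difference of miR-494-3p kept its sign in all 12 settings (0.56 to 1.66), and so did that of miR-673-5p in the 11 where it had a value (0.02 to 1.05). The bound of miR-3072-5p, or its difference where it entered on both arrays, lay between -2.87 and -0.49 over the 12 settings. A bound for a miRNA detected in normoxia only was set to at most 0, so its sign could not turn. The cause of these differences was not tested.

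No paired analysis was possible because there was 1 array per condition, and leaving out a replicate does not apply. Detection is limited by background: a member counted as undetected had a mean signal below the level of detected probes, which does not show that it was absent from the exosomes. A fold for a dim miRNA such as miR-673-5p rests on a single probe with 8 spots per array.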
